A study of Sus scrofa with 12 samples.

Results

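The RAB GTPases, SNARE proteins and coat proteins of membrane traffic were followed at the RNA level in pig (Sus scrofa) oocytes during maturation in vitro. Members were chosen by symbol, as every gene of the table named as a RAB, a syntaxin, a VAMP, 1 of 4 SNAP proteins, a COPI or COPII coat subunit, a SEC16, SEC22 or SEC61 protein, USE1, YIF1B, a YIPF protein or a TMED protein. The rule matched names and used no measured value, but it was drawn up, with USE1 and YIF1B named singly, when earlier results of these data were known. It gave 113 members among 28965 genes. They were 53 RABs, 14 syntaxins, 10 COPII genes with SEC16, 8 TMED genes, 7 YIPF genes with YIF1B, 6 COPI genes, 4 SEC22 genes with USE1, 4 SEC61 genes, 4 SNAP genes and 3 VAMPs. The SEC61, TMED, YIPF and YIF1B genes encode a protein channel, cargo receptors and Golgi membrane proteins that work beside RABs, SNAREs and coats rather than belonging to them.

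Whole-transcriptome RNA was sequenced from oocytes at 0, 12, 28 and 44 h of maturation, with 3 libraries at each time (replicates 2, 3 and 4 at 0 h, 1, 3 and 5 at 12 h, 2, 3 and 4 at 28 h, and 1, 2 and 4 at 44 h). All oocytes had been stripped of their cumulus cells before RNA isolation, and the series title names a chemically defined maturation medium. The labels give no breed, donor age or number of oocytes per library. Nor do they tie the libraries to particular donors, batches of oocytes or cultures. A p-value here thus reflects the scatter between libraries of the same time, and that scatter may be technical. In the main fit it was estimated from all 12 libraries together, so libraries outside a comparison also bear on its p-value. The time course asks which transcripts change during maturation in vitro.

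RAB GTPases are molecular switches that sit on particular membranes and recruit motors, tethers and sorting factors. SNARE proteins on a vesicle and on its target pair up and drive the membranes to fuse, while COPII coats bud carriers from the endoplasmic reticulum and COPI coats carry proteins back from the Golgi. In the oocyte, membrane traffic also builds and holds the cortical granules, secretory organelles whose release after sperm entry blocks further sperm.

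Each library held 21877235 to 26015373 gene counts, a range of 1.19-fold. Levels are given as CPM, counts divided by library size, the size having been corrected for composition with TMM factors, and as mean ± SD of the 3 libraries of a time. Such a level is a share of its library, and no added standard entered the scaling. A rise or fall below is thus a change in share, and amounts of RNA per oocyte are not known. Members are ranked against each other as RPKM, the authors' values per kilobase of gene model. Marker cut-offs and sums over several genes are in CPM, which does not correct for gene length. Of 12 oocyte markers, 11 were in the table and all 11 stood above 10 CPM. At 0, 12, 28 and 44 h their summed level ran from 12257 to 14642, 10928 to 12297, 9751 to 10155 and 7932 to 8029 CPM. Of 17 cumulus and granulosa markers in the table, AMH and VCAN stood above 10 CPM, 12 were below 1 CPM and FSHR was at 0. Their sum over the same times was 274 to 333, 302 to 318, 303 to 331 and 254 to 274 CPM. Of 5 theca, blood and endothelial markers, PECAM1 stood above 10 CPM and CYP17A1 was at 0, and the sum was 25.9 to 30.3, 26.7 to 27.9, 22.2 to 28.2 and 20.4 to 25.1 CPM. Between 44 h and 0 h edgeR called 10 of 11 tested oocyte markers (9 lower, 1 higher), 3 of 9 tested cumulus and granulosa markers (AMH lower, INHBA and PTGS2 higher) and 1 of 2 tested theca, blood and endothelial markers (lower). PTGS2 averaged below 1 CPM over the 12 libraries, so its call rests on few counts. Between 28 h and 0 h edgeR called 7 oocyte markers, all lower, and the cumulus and granulosa markers INHBA and VCAN, both higher. The part of these markers in the results on traffic genes was not tested. In a multidimensional scaling, replicate 5 of 12 h lay far from the rest along dimension 2 (-1.55). In bulk libraries, fewer cells of a type and less RNA per cell cannot be told apart.

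Together the 113 genes took a small share of the oocyte's RNA, and that share stayed nearly level. At 0, 12, 28 and 44 h it was 0.7502 ± 0.0119, 0.731 ± 0.0147, 0.748 ± 0.0178 and 0.752 ± 0.0154% of all counts (SD, n = 3 each). A filter on low counts left 99 members for testing. The median of these 99 was 6.85 RPKM, against 3.90 RPKM over all 12977 tested genes. In this group 45 genes had at least 10 RPKM and 12 had less than 1 RPKM.

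RAB5C, a RAB of early endosomes, was the member with the highest level, at 102.7 RPKM over the 12 libraries. STX6, a SNARE of the trans-Golgi network and endosomes, followed at 69.5 RPKM, and COPB2, a subunit of the COPI coat, at 50.4 RPKM. The COPII subunit SEC23B stood at 48.3 RPKM, another COPI subunit, COPB1, at 42.2 RPKM, and RAB11A, the RAB of recycling endosomes, at 42.1 RPKM. Further down stood SEC61A2, an alpha subunit of the protein channel, at 38.8 RPKM, RAB35, a RAB of the plasma membrane and recycling endosomes, at 34.7 RPKM, and RAB27A, which docks secretory granules, at 34.3 RPKM. The levels of RAB5C at 0, 12, 28 and 44 h were 102.5 ± 6.91, 97.7 ± 6.63, 104.9 ± 7.68 and 105.5 ± 4.85 RPKM, a range no wider than the spread between libraries of 1 time.

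SNAREs known from transmitter release in nerve cells were at low levels. SNAP25, the neuronal plasma membrane SNARE, had 5 counts over all 12 libraries, and its partner STX1A had 1.37 RPKM. VAMP2, their vesicle partner and a gene outside the rule, had 2.04 RPKM. The wider-acting SNAP25 relative SNAP23 had 34.4 RPKM and SNAP47 had 5.02 RPKM. VAMP7, a SNARE of lysosomes and secretory vesicles, had 21.8 RPKM, the trans-Golgi SNARE VAMP4 1.41 RPKM, and VAMP5 had 1 count. STX5, the Golgi syntaxin needed for transport from the endoplasmic reticulum, had only 19 counts over 12 libraries. The gene model of STX5 overlaps that of NXF1 on the same strand, which stood at 76.6 CPM at 0 h, and how the counting assigned reads shared by overlapping genes is not given in the sources used here. RAB3A, which in the mouse acts in cortical granule release, was measured at 9.53 RPKM.

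The 14 members that were not tested had a mean of at most 0.142 CPM. They were STX5, SNAP25, VAMP5, COPZ2, SEC16B and the RABs RAB7B, RAB9B, RAB17, RAB20, RAB25, RAB26, RAB33A, RAB34 and RAB42. RAB7B and RAB20 were at 0 counts in all 12 libraries, and the largest total among the others was 42 counts, for SEC16B. A further 8 genes of these families (COPE, COPZ1, RAB2B, RAB4B, RAB13, STX16, TMED6 and VAMP2) carry their symbol only through a name table and so fell outside the rule. VAMP3 and VAMP8 were looked for, but no gene carried either symbol.

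**Figure D1:**
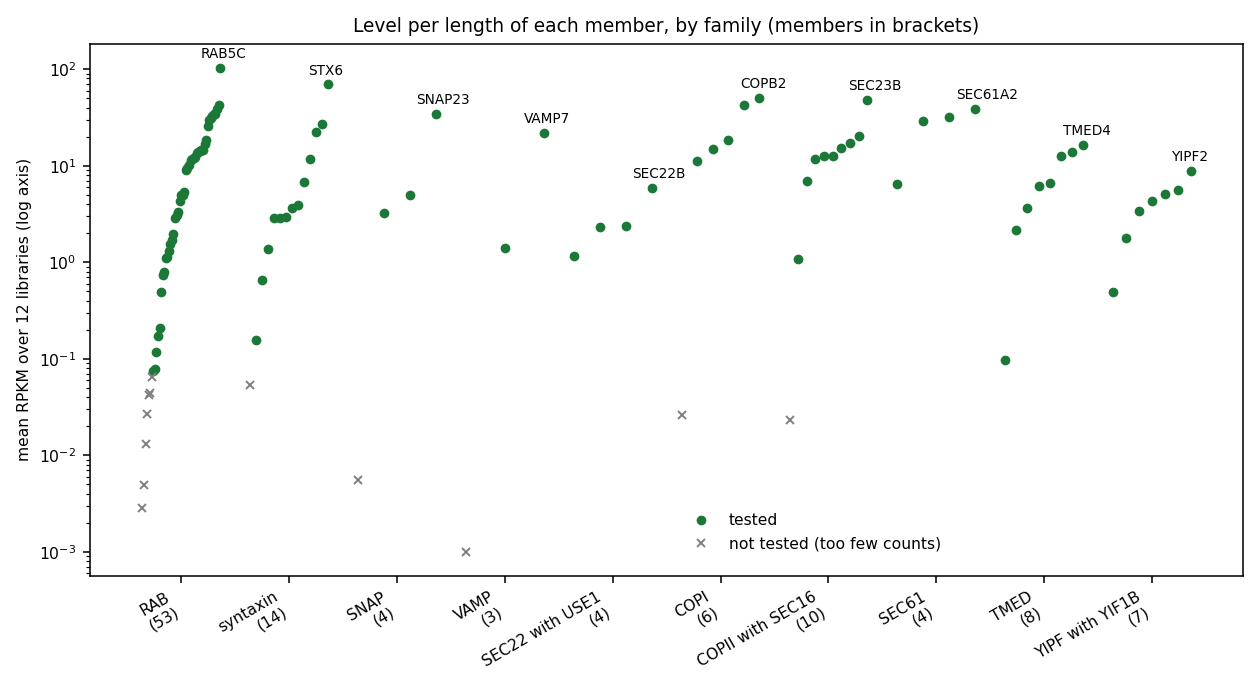
Mean level of each member over the 12 libraries, in RPKM on a log axis, by family, with the number of members in brackets. Each point is 1 gene, crosses were not tested, the leading gene of each family is named, and RAB7B and RAB20, at 0, are not drawn. The tested members run from 0.0751 RPKM for RAB44 to 102.7 RPKM for RAB5C.

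The comparison of 44 h with 0 h spans the whole of maturation. Most traffic genes stood at similar levels at both ends, and the few that passed the test divided into falls, of which a few were large, and small rises, of 0.21 to 0.26 on the log2 scale. RAB6A, USE1, STX8, SEC61G, SNAP29, YIPF3, RAB11B and COPB2 fell, and STX6, STX3, RAB40B, RAB22A and SEC31A rose. In all, 13 of 99 tested members were called by edgeR (quasi-likelihood F test, Benjamini-Hochberg adjusted over all tested genes, threshold 0.05), against 19.9% of all 12977 genes. The members' share was 13.1%. By family it ran from 0% of TMED and VAMP genes to 33.3% of SNAP genes, on 2 to 44 tested genes each. By direction, 5 members rose, against 8.3% of all genes, and 8 fell, against 11.6%. Leaving out replicate 1 of 44 h gave 6 called members, or 6.06%, and 13.2% of all genes. Leaving out replicate 2 of 44 h gave 8, or 8.08%, and 15.3% of all genes.

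The 44 h and 0 h libraries did not overlap for 34 of the 99 tested members, or 34.3%, and for 33.5% of all genes. The median log2 fold change was 0.01 for tested members and -0.00 for all genes, and its median size without sign was 0.15 and 0.20. For 73 of 99 members, or 73.7%, the log2 fold change ± 2 SE lay within a 1.5-fold change in either direction, and this held for 58.6% of all genes. The remaining 26 members had wider or shifted intervals, so a change of that size was not bounded for them.

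**Figure D2:**
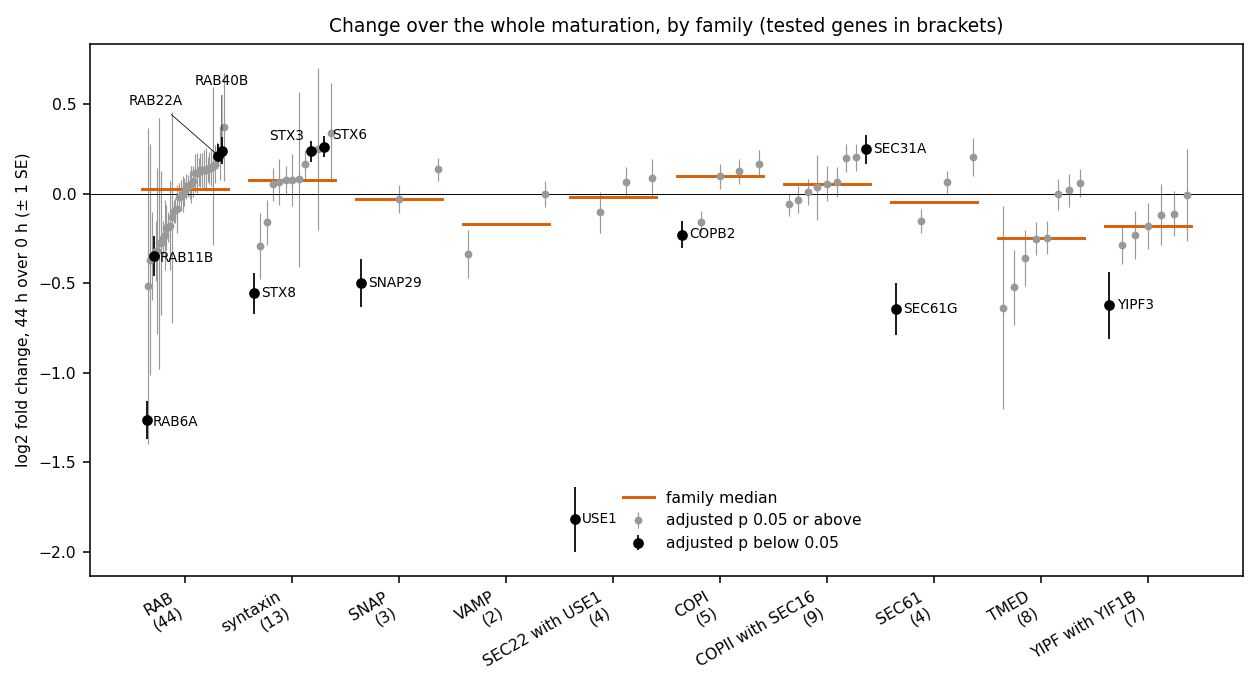
Log2 fold change of each tested member at 44 h over 0 h, by family, with ± 1 SE and the number of tested genes in brackets. Black points had an adjusted p below 0.05 and are named, grey points did not, and orange lines are family medians. RAB6A at -1.26 and USE1 at -1.82 stand apart below, while the rises lie between 0.21 and 0.26.

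RAB6A is a RAB of the Golgi, where it acts in exit of carriers and in retrograde transport (ENSSSCG00000014828, Sscrofa11.1 chromosome 9, 8121954 to 8199099). Its levels were 229, 251 and 216 CPM at 0 h, 229, 242 and 237 CPM at 12 h, 204, 235 and 203 CPM at 28 h and 87.0, 83.7 and 119.9 CPM at 44 h. Every 44 h library was below every library of the earlier times, whose values overlapped with one another. The mean of RAB6A was 96.8 ± 20.0 CPM at 44 h, against 232 ± 17.9 CPM at 0 h (SD, n = 3 each), 2.40-fold lower (log2 fold change -1.26, SE 0.11, edgeR adjusted p = 7.1e-08). Against 28 h, at 214 ± 17.9 CPM, the 44 h level was 2.21-fold lower (log2 fold change -1.14, SE 0.11, edgeR adjusted p = 7.8e-07). Both calls held in every alternative run.

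The closely related gene RAB6B did not pass the test. It averaged 52.1 ± 2.82 CPM at 44 h and 59.4 ± 2.54 CPM at 0 h (log2 fold change -0.19, SE 0.08, edgeR adjusted p = 0.114). The RPKM of RAB6A was 6.19 ± 0.319, 6.93 ± 0.503, 6.15 ± 0.276 and 2.97 ± 0.763 times that of RAB6B at 0, 12, 28 and 44 h. The 44 h ratios, at 2.66, 2.40 and 3.83, lay below all 9 earlier ones, of which the lowest was 5.94. This pair and the other pairs of relatives were chosen after their values were seen. RAB6A and RAB6B are similar in sequence, and how reads matching more than 1 gene were counted is not given in the sources used here.

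Of 44 tested RABs, 2 rose and 2 fell between 44 h and 0 h by edgeR, or 9.09% called, against 19.9% of all genes. DESeq2 called 6 RABs (3 higher, 3 lower), adding RAB1B and RAB30, where it called 22.4% of all genes. The family's summed level was 3039 ± 67.4, 2981 ± 35.99, 3085 ± 55.7 and 3043 ± 77.3 CPM at 0, 12, 28 and 44 h. RAB40B, a RAB with a SOCS box that recruits a ubiquitin ligase (ENSSSCG00000017133, chromosome 12, 492594 to 549158), stood at 356, 396 and 363 CPM at 44 h, against 312, 281 and 352 CPM at 0 h. RAB22A, a RAB of early and recycling endosomes (ENSSSCG00000007513, chromosome 17, 58514985 to 58572421), stood at 212, 213 and 206 CPM at 44 h, against 177, 173 and 195 CPM at 0 h. Both rose without overlap, by a log2 fold change of 0.24 for RAB40B (SE 0.08, edgeR adjusted p = 0.0295) and 0.21 for RAB22A (SE 0.06, edgeR adjusted p = 0.0217). The RAB40B call was lost without replicate 2 or 3 of 0 h, or 2 or 4 of 44 h (edgeR adjusted p from 0.0545 to 0.152) and with library totals alone. The RAB22A call was lost without replicate 2 or 3 of 0 h, or 1 or 2 of 44 h (edgeR adjusted p from 0.0729 to 0.0940), and the replicate block gave an edgeR adjusted p of 0.0595.

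RAB11B, a second RAB of recycling endosomes (ENSSSCG00000013600, chromosome 2, 70884457 to 70896175), stood at 29.2, 34.2 and 34.01 CPM at 44 h, against 37.9, 37.1 and 48.9 CPM at 0 h. It fell by a log2 fold change of -0.35 (SE 0.11, edgeR adjusted p = 0.0285). The call was lost without 0 h replicate 4, which held the highest value, or without 44 h replicate 1 (edgeR adjusted p 0.226 and 0.152), and the replicate block gave an edgeR adjusted p of 0.0910. Its relative RAB11A averaged 252 ± 11.8 CPM at 44 h and 245 ± 13.7 CPM at 0 h and did not pass (log2 fold change 0.04, SE 0.06, edgeR adjusted p = 0.711). The RPKM of RAB11A was 2.70 ± 0.488, 2.79 ± 0.326, 2.76 ± 0.0873 and 3.50 ± 0.358 times that of RAB11B at 0, 12, 28 and 44 h, and the 44 h ratios exceeded all earlier ones.

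The other RABs with well-known roles did not pass between 44 h and 0 h. RAB5C had a log2 fold change of 0.04 (SE 0.07), RAB35 of 0.01 (SE 0.08) and RAB7A, the RAB of late endosomes, of -0.10 (SE 0.06). RAB1A, which acts between endoplasmic reticulum and Golgi, had 0.07 (SE 0.08), RAB14, of the trans-Golgi and endosomes, 0.13 (SE 0.09), and RAB27A 0.12 (SE 0.08). RAB3A averaged 19.5 ± 0.875 CPM at 44 h and 18.0 ± 1.65 CPM at 0 h (log2 fold change 0.11, SE 0.11). RAB8A, an exocytic RAB, had -0.19 (SE 0.13), and its edgeR adjusted p was 0.332. For the first 7 of these genes, edgeR adjusted p ran from 0.298 for RAB7A to 0.963 for RAB35.

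Of 13 tested syntaxins, 2 rose (STX6 and STX3) and 1 fell (STX8) between 44 h and 0 h, or 23.1% called, against 19.9% of all genes. STX6 (ENSSSCG00000015539, chromosome 9, 122529727 to 122580651) stood at 627, 657 and 638 CPM at 44 h, against 552, 509.7 and 542 CPM at 0 h. All 44 h libraries exceeded all 9 earlier ones, and the mean was 641 ± 15.1 CPM at 44 h and 535 ± 22.04 CPM at 0 h, a 1.199-fold rise (log2 fold change 0.26, SE 0.06, edgeR adjusted p = 0.00279). STX3, a syntaxin of the plasma membrane (ENSSSCG00000013119, chromosome 2, 11694859 to 11740744), stood at 323, 306 and 308 CPM at 44 h, against 271, 254 and 273 CPM at 0 h. It rose by a log2 fold change of 0.23 (SE 0.06, edgeR adjusted p = 0.00731), and the call was lost without 44 h replicate 1 (edgeR adjusted p = 0.0514). The summed level of the syntaxins was 1198 ± 55.3, 1209 ± 16.3, 1241 ± 14.0 and 1349 ± 13.3 CPM at 0, 12, 28 and 44 h, a sum in which STX6 was the largest single term.

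STX8, a SNARE of late endosomes (ENSSSCG00000034964, chromosome 12, 54292084 to 54544918), stood at 45.9, 55.2 and 50.4 CPM at 44 h, against 87.0, 59.3 and 76.6 CPM at 0 h. The lowest 0 h library, replicate 3, was close to the highest 44 h library, and the other 0 h libraries stood well above it. STX8 fell to a mean of 50.5 ± 4.63 CPM at 44 h, against 74.3 ± 14.0 CPM at 0 h (log2 fold change -0.56, SE 0.11, edgeR adjusted p = 0.00133), in every alternative run. STX7, its usual partner in endosome fusion and named after its values were seen, averaged 135 ± 5.53 CPM at 44 h and 121 ± 13.6 CPM at 0 h and did not pass (log2 fold change 0.16, SE 0.08, edgeR adjusted p = 0.167). STX4, a plasma membrane syntaxin, had a log2 fold change of 0.06 (SE 0.13) and STX17, the syntaxin of autophagosomes, of -0.16 (SE 0.12), with edgeR adjusted p of 0.808 and 0.418.

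SNAP29, which pairs with STX17 in the fusion of autophagosomes with lysosomes (ENSSSCG00000010094, chromosome 14, 50492154 to 50511456), stood at 11.09, 12.5 and 12.8 CPM at 44 h, against 16.1, 17.4 and 18.0 CPM at 0 h. It fell by a log2 fold change of -0.50 (SE 0.13, edgeR adjusted p = 0.00973), and the call was lost without 44 h replicate 1 (edgeR adjusted p = 0.0575). SNAP23, a plasma membrane SNARE, averaged 187 ± 2.83 CPM at 44 h and 170.2 ± 8.75 CPM at 0 h. Its libraries did not overlap, and it did not pass (log2 fold change 0.13, SE 0.06, edgeR adjusted p = 0.150). The RPKM of SNAP23 was 9.05 ± 0.659, 9.95 ± 1.71, 10.51 ± 1.56 and 14.1 ± 0.916 times that of SNAP29 at 0, 12, 28 and 44 h. VAMP7 averaged 78.1 ± 5.29 CPM at 44 h and 78.1 ± 3.08 CPM at 0 h (edgeR adjusted p = 0.992), and VAMP4 averaged 11.3 ± 0.542 CPM at 44 h and 14.3 ± 0.185 CPM at 0 h (log2 fold change -0.34, SE 0.13, edgeR adjusted p = 0.0817).

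USE1 gave the largest fall of any member called between 44 h and 0 h, and it was the one that passed a test in 4 of the 5 pairwise comparisons. USE1 is a SNARE of the endoplasmic reticulum that receives carriers returning from the Golgi (ENSSSCG00000013875, chromosome 2, 60450425 to 60459121). Its levels were 12.02, 12.4 and 11.003 CPM at 0 h, 9.43, 12.02 and 14.5 CPM at 12 h, 6.71, 7.26 and 6.71 CPM at 28 h and 3.197, 4.03 and 2.80 CPM at 44 h. The 28 h libraries lay below all 0 h and 12 h libraries, and the 44 h libraries lay below all others. The counts behind these values ran from 69, in 44 h replicate 4, to 357, in 12 h replicate 5.

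At 44 h USE1 averaged 3.34 ± 0.630 CPM, against 11.8 ± 0.707 CPM at 0 h, 3.52-fold lower (log2 fold change -1.82, SE 0.18, edgeR adjusted p = 7.36e-08). Against 28 h, at 6.89 ± 0.318 CPM, it was 2.06-fold lower (log2 fold change -1.04, SE 0.18, edgeR adjusted p = 0.000587), and both calls held in every alternative run. MYO9B overlaps the gene model of USE1 on the same strand, with 27.9 CPM at 44 h and 25.7 CPM at 0 h (edgeR adjusted p = 0.525). The SEC22 genes, counted here in 1 family with USE1, did not pass. SEC22B had a log2 fold change of 0.07 (SE 0.08, edgeR adjusted p = 0.634) and SEC22C of 0.09 (SE 0.10, edgeR adjusted p = 0.634), with SEC22A, named after its values were seen, at -0.11 (SE 0.11, edgeR adjusted p = 0.598).

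Changes of coat genes were small. For each of the 5 tested COPI genes the 44 h and 0 h libraries did not overlap (3 higher, 2 lower), against 33.5% of all genes. Among the 9 tested COPII genes this held for 3, all higher. Of 5 tested COPI genes, COPB2, the beta-prime subunit (ENSSSCG00000011662, chromosome 13, 80218984 to 80264764), passed, at 317, 314 and 355 CPM at 44 h, against 363, 417 and 375 CPM at 0 h. The highest 44 h library lay just below the lowest 0 h library, and the log2 fold change was -0.23 (SE 0.07, edgeR adjusted p = 0.0304). The call was lost without 0 h replicate 3 or 44 h replicate 1 or 2 (edgeR adjusted p from 0.106 to 0.120). COPB1, the beta subunit, averaged 172 ± 1.78 CPM at 44 h and 192 ± 4.58 CPM at 0 h (log2 fold change -0.16, SE 0.06, edgeR adjusted p = 0.0738), and COPA, the alpha subunit, averaged 141 ± 3.43 CPM at 44 h and 129 ± 4.32 CPM at 0 h (log2 fold change 0.12, SE 0.07, edgeR adjusted p = 0.237). COPZ1, a zeta subunit outside the rule, had a log2 fold change of -0.32 (SE 0.09, edgeR adjusted p = 0.0101, and 0.0792 without 44 h replicate 1), the 1 call between 44 h and 0 h among the 7 such genes that were tested.

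Of 9 tested COPII genes, SEC31A, the outer cage subunit (ENSSSCG00000009244, chromosome 8, 135420884 to 135495121), passed, at 111, 106.3 and 106.7 CPM at 44 h, against 83.4, 99.2 and 90.6 CPM at 0 h. It rose by a log2 fold change of 0.25 (SE 0.08, edgeR adjusted p = 0.0308). The call was lost without 0 h replicate 2 or 4 or any 44 h library (edgeR adjusted p from 0.0606 to 0.178). SEC23A and SEC23B, which form the inner layer of the coat, had log2 fold changes of 0.01 (SE 0.07) and -0.06 (SE 0.06), and edgeR adjusted p of 0.948 and 0.573. The cargo-binding subunits SEC24A and SEC24C had 0.20 (SE 0.08, edgeR adjusted p = 0.0649) and 0.06 (SE 0.09, edgeR adjusted p = 0.685). The ± 2 SE intervals of all 9 COPII genes and all 5 COPI genes lay within 1.5-fold.

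SEC61G, the small gamma subunit of the channel that passes new proteins into the endoplasmic reticulum (ENSSSCG00000035434, chromosome 9, 139127473 to 139135407), stood at 7.05, 8.30 and 7.17 CPM at 44 h, against 12.2, 11.5 and 11.5 CPM at 0 h. The 44 h libraries lay below all 9 earlier ones. SEC61G fell to 7.51 ± 0.688 CPM at 44 h, against 11.7 ± 0.387 CPM at 0 h (log2 fold change -0.64, SE 0.14, edgeR adjusted p = 0.00247), in every alternative run. The other subunits of the channel did not pass. SEC61B, the beta subunit, averaged 78.7 ± 5.62 CPM at 44 h and 68.3 ± 9.87 CPM at 0 h (log2 fold change 0.20, SE 0.11, edgeR adjusted p = 0.193). SEC61A2 averaged 134 ± 3.62 CPM at 44 h and 149 ± 6.38 CPM at 0 h (log2 fold change -0.15, SE 0.07, edgeR adjusted p = 0.115).

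All 7 YIPF and YIF1B genes, which encode membrane proteins of the Golgi and the carriers that reach it, had log2 fold changes below 0. This held for 6573 of all 12977 tested genes. The family median was -0.18, with values from -0.62 to -0.01. The summed level of the family was 167 ± 21.4 CPM at 0 h, a wide spread, and 144 ± 6.07 CPM at 44 h. By edgeR 1 of the 7 was called, as lower, against 19.9% of all genes in either direction. That gene was YIPF3 (ENSSSCG00000033627, chromosome 7, 38506671 to 38511459), at 6.59, 6.16 and 7.46 CPM at 44 h, against 12.1, 10.96 and 8.09 CPM at 0 h. Its log2 fold change was -0.62 (SE 0.19, edgeR adjusted p = 0.0216), and the call was lost without 0 h replicate 2 or 44 h replicate 1 or 2 (edgeR adjusted p from 0.0719 to 0.128). The best-expressed members of the family, YIPF2 and YIPF1, had -0.18 (SE 0.13, edgeR adjusted p = 0.368) and -0.23 (SE 0.13, edgeR adjusted p = 0.257). Without 0 h replicate 3, YIPF2 was called (log2 fold change -0.36, edgeR adjusted p = 0.00726). DESeq2 called 2 genes of the family, YIPF3 and YIPF5, both lower, where it called 22.4% of all genes.

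TMED proteins are cargo receptors that cycle between endoplasmic reticulum and Golgi. Of the 8 genes, 6 had log2 fold changes below 0, against 6573 of all 12977 tested genes, and the median was -0.25. By edgeR 0 of the 8 were called, against 19.9% of all genes. An unadjusted edgeR p under 0.05 was found for 4 of the 8, against 4040 of all 12977 tested genes. DESeq2 called TMED4 and TMED5 as lower, where it called 22.4% of all genes. TMED4, the leading gene of the family, stood at 38.9, 40.8 and 38.2 CPM at 44 h, against 49.5, 41.2 and 49.8 CPM at 0 h, and narrowly missed the threshold (log2 fold change -0.25, SE 0.09, edgeR adjusted p = 0.0546). It passed with library totals alone (edgeR adjusted p = 0.0455) and without 0 h replicate 3 or 12 h replicate 1 or 5 (edgeR adjusted p from 0.00859 to 0.0493). TMED10 averaged 60.7 ± 3.55 CPM at 44 h and 58.3 ± 2.46 CPM at 0 h (log2 fold change 0.06, SE 0.08, edgeR adjusted p = 0.690), and TMED8 had a log2 fold change of 0.02 (SE 0.09, edgeR adjusted p = 0.925).

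**Figure D3:**
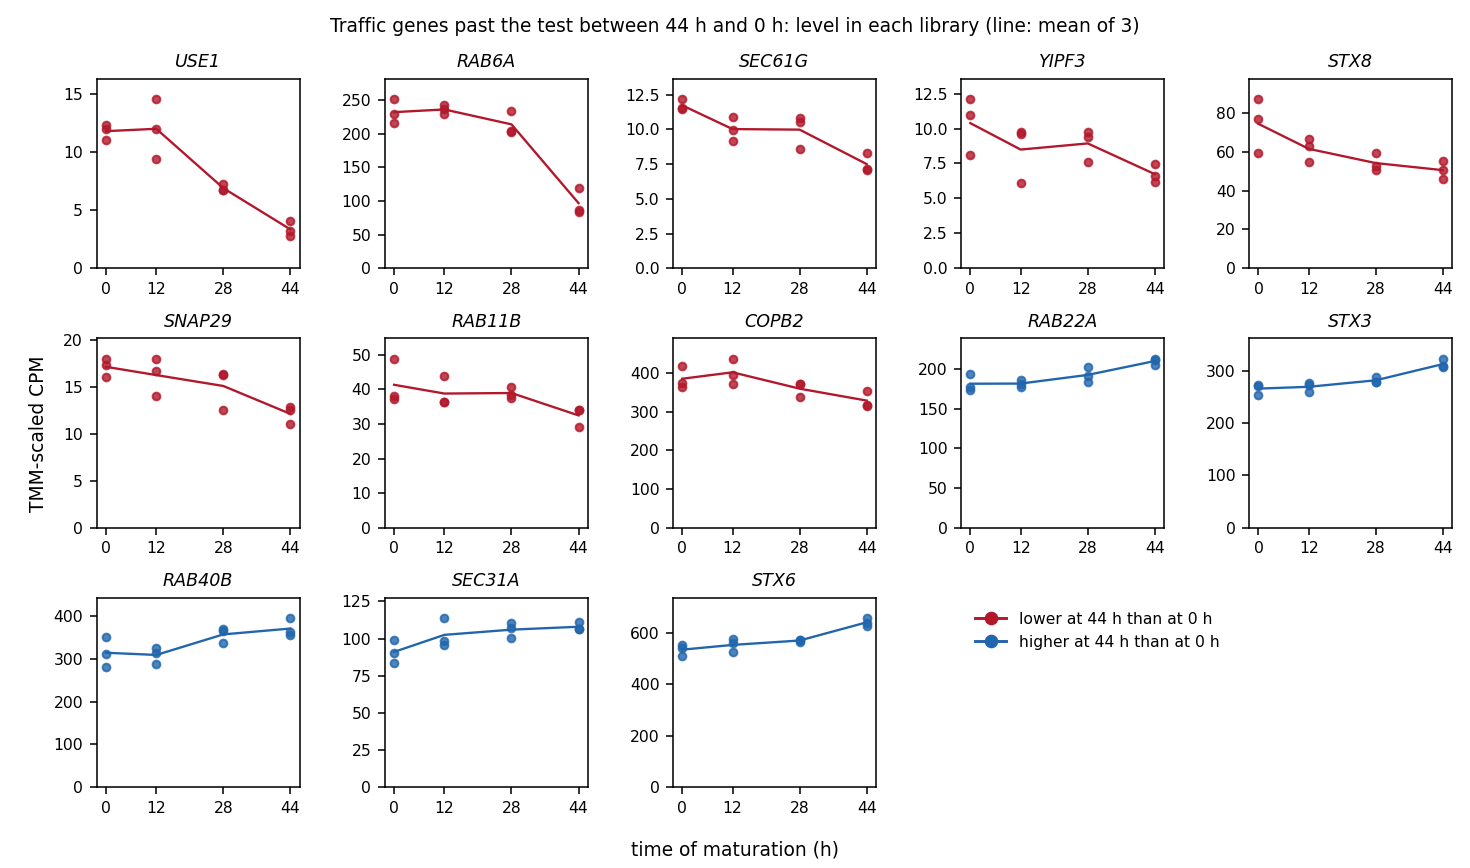
Level of the 13 members called between 44 h and 0 h, in TMM-scaled CPM on axes that start at 0, against time of maturation in hours. Points are libraries and lines join the means of 3, with falls in red and rises in blue. RAB6A drops after 28 h, to 96.8 CPM at 44 h, while USE1 is already lower at 28 h, at 6.89 CPM.

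The steps between neighbouring times held few of these changes. Between 12 h and 0 h edgeR called 0 of 99 tested members, against 0.208% of all genes, and DESeq2 also called 0. An unadjusted edgeR p under 0.05 was found for 7 of the 99 members and for 1461 of all 12977 tested genes. Without 0 h replicate 3, edgeR called 4 members, or 4.04%, where that fit called 1.97% of all genes. They were RAB9A, STX8, TMED3 and YIPF2, all lower at 12 h, and RAB9A and TMED3 were named after their values were seen. The libraries of 12 h and 0 h did not overlap for 13 members, or 13.1%, against 13.4% of all genes. RAB6A and USE1 had log2 fold changes of 0.02 (SE 0.10) and 0.03 (SE 0.17) at 12 h over 0 h, with edgeR adjusted p of 0.960 and 0.974.

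Between 28 h and 12 h, 7 of 99 tested members had an unadjusted edgeR p under 0.05, as did 811 of all 12977 tested genes. USE1 was the 1 member called, lower at 28 h, against 0.262% of all genes called in either direction and 0.154% lower. It fell to 6.89 ± 0.318 CPM at 28 h, against 11.9996 ± 2.56 CPM at 12 h (log2 fold change -0.80, SE 0.17, edgeR adjusted p = 0.0450). The groups did not overlap, but the adjusted p sat near the threshold. It was lost without 0 h replicate 2, 12 h replicate 3 or 5, any 28 h library or 44 h replicate 1 (edgeR adjusted p from 0.0600 to 0.321), and also with library totals alone and with a replicate block (edgeR adjusted p 0.0660 and 0.426).

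Against 0 h, the 28 h libraries had 2 members called, both lower, where 2.66% of all genes were called in either direction and 2.05% lower. USE1 had a log2 fold change of -0.77 (SE 0.17, edgeR adjusted p = 0.0123) and STX8 of -0.46 (SE 0.11, edgeR adjusted p = 0.0326), where STX8 averaged 54.1 ± 4.59 CPM at 28 h and 74.3 ± 14.0 CPM at 0 h. The USE1 call was lost without 0 h replicate 2 or 28 h replicate 2 or 4 (edgeR adjusted p from 0.0523 to 0.0776). The STX8 call was lost without replicate 2 or 4 of 0 h, or 3 or 4 of 28 h (edgeR adjusted p from 0.131 to 0.280). The count was 4 without 0 h replicate 3, where 4.76% of all genes were called. RAB4B, a RAB of early and recycling endosomes outside the rule, averaged 11.03 ± 1.35 CPM at 28 h and 18.03 ± 3.43 CPM at 0 h, without overlap (log2 fold change -0.71, SE 0.17, edgeR adjusted p = 0.0289). Its call was lost on leaving out replicate 2 or 4 of 0 h or any 28 h library (edgeR adjusted p from 0.0678 to 0.229). These comparisons share their 0 h libraries with the 44 h one, and the values are given side by side only.

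Between 44 h and 28 h, RAB6A and USE1 were called, both lower at 44 h, 2.02% of tested members, against 4.69% of all genes in either direction and 4.3% lower. DESeq2 also called STX6 as higher (log2 fold change 0.18, DESeq2 adjusted p = 0.0275), where edgeR gave 0.17 (SE 0.06, edgeR adjusted p = 0.126). A fit of only these times called 5 members, or 5.15%, and 7.81% of all genes, adding the fall of RAB8A and the rises of STX6 and STX11, a syntaxin of immune cell secretion named after its values were seen. RAB8A stood at 20.8, 26.7 and 25.8 CPM at 44 h, against 31.5, 32.4 and 30.99 CPM at 28 h, without overlap (log2 fold change -0.37, edgeR adjusted p = 0.102, and 0.0219 in the fit of only these times). In a test of any change over the 4 times, 8 members were called, or 8.08%, against 13.1% of all genes, namely COPB2, RAB6A, RAB40B, SEC61G, STX3, STX6, STX8 and USE1. That count was 3 without 44 h replicate 1, where 8.26% of all genes were called, and 15 without 0 h replicate 3, where 16.4% were. It was 4 when replicate 2 of 0 h, or 2 or 4 of 44 h, was left out, with 8.92%, 8.67% and 10.1% of all genes in those fits.

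**Figure D4:**
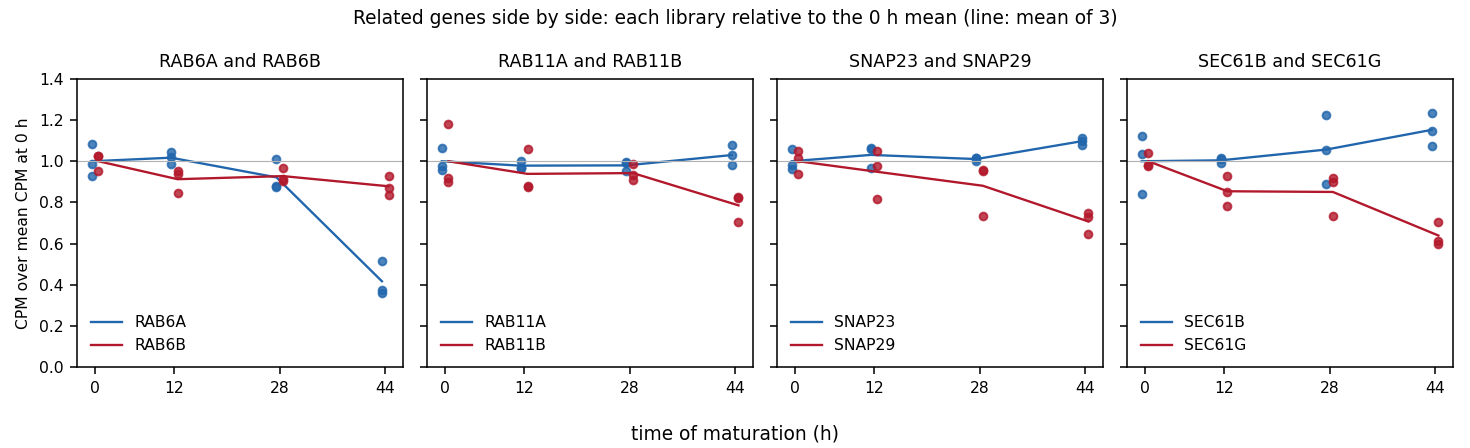
Level of each library relative to the gene's 0 h mean, for 4 pairs of genes chosen after their values were seen, against time of maturation in hours. The pair SEC61B and SEC61G are different subunits of the same channel. Points are libraries and lines join the means of 3. RAB6A reaches 0.360 to 0.517 of its 0 h mean at 44 h, while RAB6B stays at 0.835 to 0.929.

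Genes that work with the members were described from 8 lists, chosen with earlier results of these data known, with 189 tested genes in all. Between 44 h and 0 h, 7 of them rose and 28 fell, 18.5% against the 19.9% of all genes. By list, the share called ran from 10.7% of clathrin and adaptor genes to 40% of cargo receptors and YIP partners, on 8 to 53 tested genes each. Falls made up all 6 calls among 15 cargo receptors and YIP partners. YIF1A, the Golgi protein that pairs with YIPF proteins and is a close relative of the member YIF1B, stood at 2.58, 1.78 and 2.55 CPM at 44 h, against 18.3, 17.5 and 18.7 CPM at 0 h. Its 44 h libraries were far below all others (log2 fold change -2.98, SE 0.16, edgeR adjusted p = 7.75e-12), while YIF1B averaged 9.81 ± 0.788 CPM at 44 h and 10.7 ± 2.65 CPM at 0 h (log2 fold change -0.12, SE 0.17, edgeR adjusted p = 0.708). CNIH4, a cargo receptor of COPII carriers, fell to 44.5 ± 1.25 CPM at 44 h, against 83.4 ± 9.25 CPM at 0 h (log2 fold change -0.91, SE 0.09, edgeR adjusted p = 6.22e-08).

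Of 16 ARF and SAR GTPases and regulators, 1 rose and 1 fell. SAR1A, the GTPase that starts the COPII coat, stood at 13.5, 15.1 and 15.7 CPM at 44 h, against 30.8, 27.1 and 21.4 CPM at 0 h (log2 fold change -0.84, SE 0.13, edgeR adjusted p = 4.81e-05). MIA3, which loads large cargo into COPII carriers, rose by 0.20 on the log2 scale (SE 0.07, edgeR adjusted p = 0.0278). Its call was lost without 0 h replicate 2 or 3 or any 44 h library and with a replicate block, at up to 0.107. Of 23 other SNAREs and fusion factors, 3 fell, among them BET1, a SNARE between endoplasmic reticulum and Golgi, which averaged 12.4 ± 2.43 CPM at 44 h and 21.2 ± 1.02 CPM at 0 h (log2 fold change -0.77, SE 0.14, edgeR adjusted p = 0.000317), and VPS33B, a regulator of endosomal SNAREs, with a log2 fold change of -0.60 (edgeR adjusted p = 0.000319).

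Among 53 tethers, 4 rose and 9 fell, including TRAPPC8 of the TRAPP complex and COG2 of the Golgi COG complex, both with a log2 fold change of -0.45 (edgeR adjusted p 0.00026 and 0.000265). Of 25 regulators of the RAB cycle, 2 rose and 1 fell. RABEP1, which binds RAB5 on early endosomes, rose to 723 ± 11.07 CPM at 44 h, against 574 ± 42.4 CPM at 0 h (log2 fold change 0.33, SE 0.06, edgeR adjusted p = 0.00056), and RABGAP1 to 665 CPM at 44 h, against 558 CPM at 0 h (edgeR adjusted p = 0.00816). Of 28 clathrin and adaptor genes, 3 fell, including CLTA, a clathrin light chain, which averaged 293 ± 15.0 CPM at 44 h and 355 ± 17.6 CPM at 0 h (log2 fold change -0.28, SE 0.07, edgeR adjusted p = 0.00501) and AP2S1, which averaged 18.0 CPM at 44 h and 24.3 CPM at 0 h (edgeR adjusted p = 0.0118).

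Of 21 translocon partners, 3 fell, among them SRP54, the subunit of the signal recognition particle that binds signal peptides (log2 fold change -0.67, edgeR adjusted p = 0.00014), and SEC11C of the signal peptidase (log2 fold change -0.57, edgeR adjusted p = 0.00032). Of 8 retromer and sorting nexin genes, 2 fell, VPS29 (log2 fold change -0.43, edgeR adjusted p = 0.000237) and SNX3 (log2 fold change -0.31, edgeR adjusted p = 0.0162). Without 0 h replicate 2 or 44 h replicate 1, the calls of AP2S1 and SNX3 were lost, at up to 0.0623 for AP2S1 and 0.0711 for SNX3 (edgeR adjusted p).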

How the data were processed

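RNA of oocytes was sequenced in 12 libraries. Per the labels' protocols, an AllPrep kit gave the RNA and a SMARTer stranded low-input kit the libraries. The submitters' processing notes name the build Sscrofa11.1 and DESeq2; the aligner, the strand setting and the treatment of reads shared by genes are not given in the sources used here. The deposited table holds, per the file headers, the total counts of each gene that the authors made, and these raw counts were the input. The deposited RPKM values, which the authors scaled by library and gene length, were used only to compare levels between genes and for ratios of genes. The authors' own fold changes were not used.

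Column names gave each library's time and replicate. Of 66 pairs of libraries, none held identical counts. Low genes were removed by filterByExpr (minimum count 10). Counts of all 12 libraries were fitted in edgeR 4.0.16 (R 4.3.3, limma 3.58.1) with TMM factors (0.979 to 1.02), robust quasi-likelihood estimation and 8 residual degrees of freedom. The biological coefficient of variation was 10.6%, and p-values were adjusted over 12977 genes, at a threshold of 0.05. A SE is the log2 fold change divided by the square root of F. The fit was tested on simulated data.

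The members and lists were chosen with earlier results of these data known. Named members are the called ones (up to 10 in each direction per comparison), the 2 highest by RPKM in each family and a panel of 24 traffic genes, of which 21 were members. Other members, among them STX1A, YIF1B and TMED5, were named after their values were seen. Outside the members, the 2 smallest adjusted p of each list between 44 h and 0 h were named, with YIF1A. Cell type markers, genes overlapping members and genes with a matching symbol outside the rule were named too. Of these, COPZ1 and RAB4B were given results after their values were seen. Alternatives were RLE scaling, library totals alone, no filter, DESeq2 1.42.0, a replicate block, a fit limited to the compared times, and omission of each library in turn. For genes outside the members, and for the share of all genes called, they were added after the data were seen.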

Additional observations from a re-analysis of the deposited data

How the results depend on the processing

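Counts of called members depended more on single libraries than on scaling. Between 44 h and 0 h, 6 to 18 were called when 1 library was left out (12.9% to 21.7% of all genes), and 13 to 19 under the other settings. Between 12 h and 0 h the range on leaving out 1 library was 0 to 4, between 28 h and 12 h 0 to 1, between 44 h and 28 h 2 to 2, between 28 h and 0 h 0 to 4, and for any change 3 to 15 (8.26% to 16.4% of all genes). Between 28 h and 12 h, library totals alone and the replicate block each gave 0. Between 44 h and 28 h the fit of only the 2 times compared gave 5. For any change the replicate block gave 4 (10.8% of all genes). The cause was not tested. Same-numbered 28 h and 0 h libraries had correlations of deviations of 0.105, 0.127 and 0.0629, and between these times each correlated best with its own number. Same-numbered libraries of the other times had lower maxima, from -0.0061 (replicate 4 of 28 h and 44 h) to 0.0653 (replicate 2 of 0 h and 44 h). Libraries of different number reached 0.0668 (replicate 3 of 0 h with replicate 4 of 44 h). The labels do not say that numbers pair samples. With the replicate block 14 members were called between 44 h and 0 h, 2 between 44 h and 28 h and 2 between 28 h and 0 h. Over 3870 recomputed values of named members, 42 lost a call, 15 gained one and 0 changed the direction of a called value. COPB1 (library totals alone) and SEC24A (DESeq2, or without 0 h replicate 3) were among those gained at 44 h over 0 h. Genes near 10 CPM rest on about 200 to 300 counts a library, and counts below the filter limit what can be said of 14 members.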
